A study of Mus musculus with 2 samples.

Results

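Immediate early genes are switched on within minutes of a stimulus without new protein synthesis, and 9 of them were followed here across the cells of atherosclerotic mouse aortas: Fos, Fosb, Jun, Junb, Egr1, Ier2, Ier3, Atf3 and Nr4a1. They were chosen by name from the 14714 genes of the deposited count table, and all 9 were found. Serum response factor and cyclic AMP response element binding protein, acting on promoters that are already open, start most of this class, and the proteins made then act on a later set of genes. In the arterial wall the class is known for its response to injury, stretch, growth factors and inflammation. The same genes are also known to be induced while a tissue is digested to single cells.

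Aortas of mice on 12 weeks of western diet were digested and their cells sequenced one by one, with 1 library per genotype. The EC-iDKO_Apoe_KO library, below the double knockout, carried an inducible double knockout in endothelial cells together with the Apoe knockout. The Apoe_KO library carried the Apoe knockout alone, and loss of Apoe, the lipoprotein ligand, makes mice prone to atherosclerosis on this diet. The genes deleted in the endothelium are, from knowledge of the line, those of the epsins Epn1 and Epn2, endocytic adaptors. The sources used here do not give the driver of the recombination, the sex and age of the mice or how many mice stood behind each library. In EC cluster 9, described below, Epn1 had 2 UMIs in the double knockout and 9 in the Apoe_KO, and Epn2 25 and 20; 3′ tags that lie outside a deleted part would not check the deletion. Digestion took 1.5 hours at 37 °C and CD31 beads, which bind endothelial cells, were used, although the cells were labelled as all cells.

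The double knockout library held 5489 cells and 6853185 unique molecular identifiers (UMIs), and the Apoe_KO library 2428 cells and 13304762 UMIs. A median cell held 769 UMIs in the double knockout, against 3770 in the Apoe_KO. The 2 libraries shared 5 cell barcodes. With 1 library per genotype no test was possible, so every difference below is between these libraries, and the intervals are 95% intervals that cover counting error only. The level of a gene is its UMIs summed over the cells of a population per 1000000 UMIs of that population (CPM). A gene met the rule of size where its ratio of CPM was at least 1.5 in either direction, its interval did not hold 1, and it had at least 20 UMIs over both libraries.

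The deposited classes were used under their own names: SMC (smooth muscle), EC (endothelial), modEC, fibroblast and immune/inflam. Of the SMC class, cluster 15 was left out, which kept 4348 double knockout and 1516 Apoe_KO cells. The 6 contractile smooth muscle markers, among them Acta2 and Myh11, summed to 53410 CPM in the double knockout and 51238 CPM in the Apoe_KO in this class. In EC cluster 9, 7 endothelial markers summed to 3795 CPM in the double knockout and 1955 CPM in the Apoe_KO. The smooth muscle markers were also present there, at 55.1% of their SMC class level in the double knockout and 60.7% in the Apoe_KO, as medians over the markers. The modEC clusters 7, 8 and 10 carried few endothelial tags, with the same 7 markers at 102, 147 and 271 CPM in the double knockout against 90.4, 58.5 and 59.0 CPM in the Apoe_KO. In clusters 8 and 10 the 5 fibroblast markers summed to 6010 and 1309 CPM in the double knockout, against 23208 and 17874 CPM in the Apoe_KO. These clusters are therefore called by their deposited name and number.

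The promoters of 5 members are shown because 2 of them (Junb and Ier3) were higher in the double knockout, 2 (Fosb and Atf3) were lower and 1 (Fos) differed little. Each sequence is the 250 bases before the RefSeq start in GRCm38.p6, read 5′ to 3′ on the gene's strand. Capitals mark the core of the cyclic AMP response element (TGACG, or CGTCA on the other strand), the TATA box (TATAAA), the CCAAT box (CCAAT) and the EGR site (GCGNGGGCG).
Junb, chr8:84978749-84978998, minus strand: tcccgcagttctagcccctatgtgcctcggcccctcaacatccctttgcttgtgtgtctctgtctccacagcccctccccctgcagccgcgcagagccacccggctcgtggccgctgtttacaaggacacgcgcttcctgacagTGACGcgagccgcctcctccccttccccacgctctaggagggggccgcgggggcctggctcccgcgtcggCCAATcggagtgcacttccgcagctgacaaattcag
Ier3, chr17:35821463-35821712, plus strand: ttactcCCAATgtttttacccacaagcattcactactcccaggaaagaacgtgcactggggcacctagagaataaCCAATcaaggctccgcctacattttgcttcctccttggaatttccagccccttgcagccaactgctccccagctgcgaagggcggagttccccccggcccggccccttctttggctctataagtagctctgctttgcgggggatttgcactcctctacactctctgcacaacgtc
Fosb, chr7:19310046-19310295, minus strand: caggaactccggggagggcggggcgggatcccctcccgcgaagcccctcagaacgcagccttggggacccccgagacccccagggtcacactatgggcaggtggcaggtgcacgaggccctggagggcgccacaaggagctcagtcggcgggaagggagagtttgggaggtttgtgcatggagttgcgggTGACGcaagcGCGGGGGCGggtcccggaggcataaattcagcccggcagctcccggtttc
Atf3, chr1:191183334-191183583, minus strand: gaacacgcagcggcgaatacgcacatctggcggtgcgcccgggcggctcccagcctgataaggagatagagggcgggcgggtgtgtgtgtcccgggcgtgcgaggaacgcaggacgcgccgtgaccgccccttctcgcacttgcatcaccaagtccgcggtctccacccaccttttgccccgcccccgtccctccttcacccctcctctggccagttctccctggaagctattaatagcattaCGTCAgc
Fos, chr12:85473640-85473889, plus strand: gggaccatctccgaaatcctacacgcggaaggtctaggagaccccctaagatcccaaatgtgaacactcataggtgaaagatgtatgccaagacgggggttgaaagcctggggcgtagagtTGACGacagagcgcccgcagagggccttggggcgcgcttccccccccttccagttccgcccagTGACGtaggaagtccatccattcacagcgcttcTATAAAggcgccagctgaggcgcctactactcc

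Motifs were searched on both strands in the promoters of 7 members. No promoter sequence of Ier2 was at hand and Egr1 was left out of the search, so no motif result covers these genes. The TGACG core was present in 5 of the 7 (Fos, Fosb, Junb, Atf3 and Nr4a1), against 17.9% of all 27025 promoters of the same length. The CCAAT box was present in Jun, Junb and Ier3, and in 34.5% of all promoters. The EGR site, bound by the Egr1 protein, was present in Fosb and Nr4a1, and in 4.65% of all. TATAAA was present in Fos and in 13% of all. No match to the AP-1 site (TGACTCA), which the Fos and Jun proteins bind, was found in these 7 windows, and 4.43% of all promoters held one. The CArG box of serum response factor, at 1.4% of all promoters, was likewise not matched within these 250 bases. The TGACG core stood in Junb, which was higher in the double knockout, as well as in Fosb and Atf3, which were lower. A match is a description of the letters in this window and not a bound site.

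All 9 genes are protein coding, and in GRCm38 (GENCODE M21) they lie on 8 chromosomes. Fos is at chr12:85473890-85477273 with 4 exons, Fosb at chr7:19302696-19310051 with 5 and Junb at chr8:84974484-84978718 with 2. Jun, at chr4:95049034-95052222, and Ier2, at chr8:84661331-84662852, have a single exon. Ier3 is at chr17:35821684-35822923 with 2 exons, Egr1 at chr18:34859823-34864984 with 3, Atf3 at chr1:191170296-191218039 with 5 and Nr4a1 at chr15:101254269-101274795 with 8. Jun overlaps the antisense gene Junos and Junb overlaps Prdx2 on the other strand. Whether the counting used strand is not stated in the sources used here, so reads of these pairs could not be told apart if it did not. Prdx2 stood at 190 CPM in double knockout and 184 CPM in Apoe_KO smooth muscle, and Junos at 2.55 and 1.17 CPM. Atf3 overlaps Gm24748 on the other strand, and its RefSeq start lies inside the GENCODE gene. The same holds for the RefSeq start of Nr4a1. The promoter windows searched for Atf3 and Nr4a1 (chr15:101266596-101266845) thus lie inside their GENCODE genes. The RefSeq starts of Fosb and Ier3 also lie inside their GENCODE genes, near the edge. Their windows run into these genes only from chr7:19310046 to 19310051 and from chr17:35821684 to 35821712.

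In smooth muscle the 9 genes did not move as a block. Junb, Ier2 and Ier3 were higher in the double knockout by 3.02- to 3.98-fold. Fosb, Egr1 and Atf3 were lower there by 1.52- to 1.82-fold, and Fos, Jun and Nr4a1 did not meet the rule of size. Of the 9 genes, 3 were higher and 3 lower by the rule, where it was met by 9.87% of the 11941 genes with enough UMIs in the upward and 7.67% in the downward direction. Among cells of at least 2000 UMIs, pooled, 1 of the 9, Atf3, remained lower by the rule. The log2 ratios were -0.47 for Fosb and -0.53 for Egr1. This pool mixed depths, with 603 double knockout and 363 Apoe_KO cells under 4000 UMIs, and 170 and 849 at 4000 and over. Within the bin from 2000 to under 4000 UMIs, Fosb, Jun and Egr1 also met the rule, at ratios of 0.56, 0.56 and 0.62. At 4000 and over Fosb met it, at 0.63, and Jun and Egr1, at 0.83 and 0.74, did not. Over all smooth muscle cells the median log2 ratio was -0.31 over the 9 genes and 0.03 over all genes. Fewer cells with an active gene and less RNA per cell cannot be told apart in such sums.

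Fos encodes a partner of Jun proteins in the AP-1 transcription factor. In smooth muscle it stood at 2930 CPM in the double knockout and 3261 CPM in the Apoe_KO, a ratio of 0.90 (0.88 to 0.92). Fosb, a Fos homologue, stood at 680 CPM in the double knockout and 1034 CPM in the Apoe_KO and was 1.52-fold lower (1.46 to 1.58). Of these 2 Fos family members, Fos lay nearer to level.

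The Jun family split. Jun, the founding AP-1 subunit, stood at 618 CPM in the double knockout and 913 CPM in the Apoe_KO, 1.48-fold lower (1.42 to 1.54) and just short of the 1.5-fold limit. It passed that limit with median-of-ratios scaling, at a log2 ratio of -0.59. Junb, a Jun homologue that can restrain Jun activity, went the other way, with 835 CPM in the double knockout and 276 CPM in the Apoe_KO, 3.02-fold higher (2.88 to 3.18). The 2 family members thus differed in direction between the libraries.

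Egr1, a zinc finger factor of the growth and injury response of vessels, stood at 1853 CPM in the double knockout and 2967 CPM in the Apoe_KO, 1.60-fold lower (1.57 to 1.64). Atf3, a stress-induced factor of the ATF family, stood at 686 CPM in the double knockout and 1251 CPM in the Apoe_KO, 1.82-fold lower (1.76 to 1.89). Nr4a1, an orphan nuclear receptor, stood at 173 CPM in the double knockout and 215 CPM in the Apoe_KO, a ratio of 0.81 (0.75 to 0.87). Of the 9 genes in smooth muscle, Atf3 had the lowest ratio.

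Ier2 and Ier3 are small early response genes, and Ier3 is known as a target of NF-κB that bears on cell survival. Ier2 stood at 483 CPM in the double knockout and 121 CPM in the Apoe_KO, 3.98-fold higher (3.71 to 4.28). Ier3 stood at 840 CPM in the double knockout and 268 CPM in the Apoe_KO, 3.13-fold higher (2.98 to 3.29). Among all 11941 genes, 0.54% had a higher ratio than Ier2, 0.88% than Ier3 and 1.09% than Junb, while 5.26% had a lower ratio than Atf3.

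**Figure D1:**
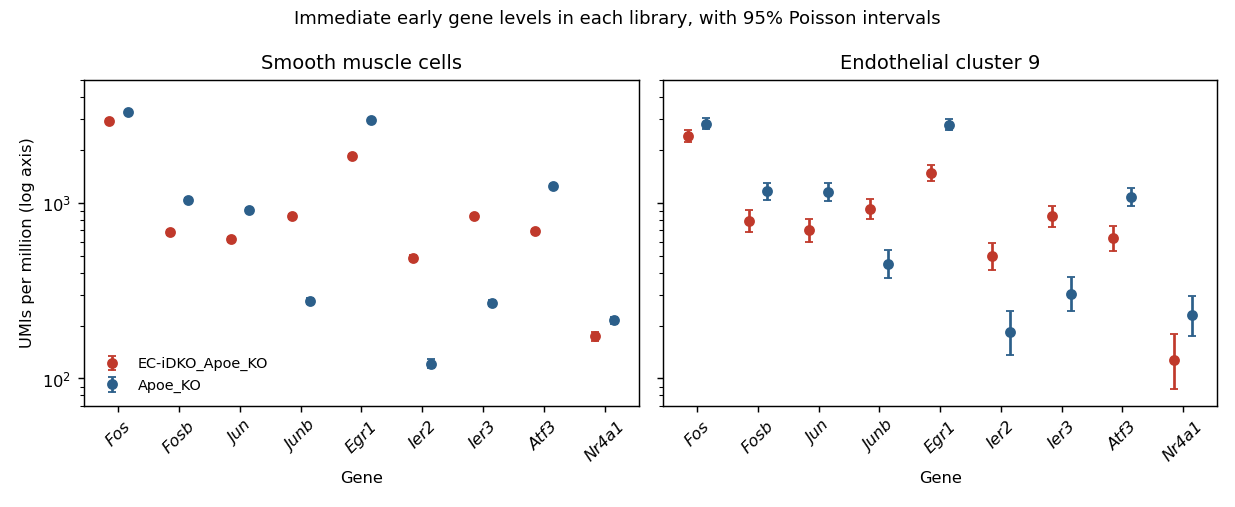
UMIs per 1000000 UMIs (log axis) of the 9 genes in the SMC class without cluster 15 (left) and in EC cluster 9 (right), with the double knockout library left of the Apoe_KO library for each gene and 95% Poisson intervals as bars. Junb, Ier2 and Ier3 lie higher in the double knockout in both panels and the other genes lie level or lower.

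The summed level lay closer than most of its members: the 9 genes together stood at 9097 CPM in double knockout and 10307 CPM in Apoe_KO smooth muscle, a ratio of 0.88 (0.87 to 0.89). The makeup of the sum differed. Junb, Ier2 and Ier3 gave 23.7% of its UMIs in the double knockout and 6.46% in the Apoe_KO. Fosb, Jun, Egr1 and Atf3 gave 42.2% in the double knockout and 59.8% in the Apoe_KO. The share of Fos hardly differed, at 32.2% and 31.6%.

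EC cluster 9, of the class at which the deletion was aimed, held 287 double knockout and 96 Apoe_KO cells and had the same split. Junb stood at 922 CPM in the double knockout and 449 CPM in the Apoe_KO, 2.05-fold higher (1.64 to 2.58). Ier2 stood at 497 CPM in the double knockout and 184 CPM in the Apoe_KO, and Ier3 at 838 and 303 CPM. These 3 genes gave 27.0% of the UMIs of the sum in the double knockout and 9.24% in the Apoe_KO. Egr1 stood at 1470 CPM in the double knockout and 2779 CPM in the Apoe_KO, 1.89-fold lower (1.67 to 2.15), and Jun was 1.64-fold lower (1.36 to 1.99).

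In all, 3 of the 9 genes were higher and 4 lower by the rule in this cluster, where 7.2% of 4109 genes were higher and 8.79% lower. The lower 4 were Jun, Egr1, Atf3 and Nr4a1, of which Nr4a1 rested on 32 UMIs in the double knockout and 61 in the Apoe_KO. Fos was at 2388 CPM in the double knockout and 2809 CPM in the Apoe_KO, a ratio of 0.85 (0.76 to 0.95). Over the 9 genes the median log2 ratio was -0.55, and over all genes tested -0.02. Among cells of at least 2000 UMIs, 8 in the double knockout and 57 in the Apoe_KO, 2 of the 9 were lower by the rule, and Jun turned to a log2 ratio of 0.18. Markers of other cells also differed in this cluster: the fibroblast markers summed to 381 CPM in the double knockout and 3334 CPM in the Apoe_KO, and the cartilage markers to 23.8 and 427 CPM. The macrophage markers summed to 7.95 CPM in the double knockout, with 5 of 6 at 0, and 1869 CPM in the Apoe_KO, while the erythroid markers summed to 660 CPM in the double knockout and were at 0 in the Apoe_KO. The part of these cells and of the smooth muscle RNA given above in these ratios was not tested. Over the whole EC class, with 380 double knockout and 131 Apoe_KO cells, the sum of the 9 genes had a ratio of 1.03 (0.98 to 1.08). Junb, Ier2 and Ier3 were higher there, at 2.43, 2.84 and 4.50. Egr1 and Atf3 were lower by the rule, both at 0.62. Jun, Fosb and Nr4a1 did not meet it, at 0.71, 0.87 and 0.88.

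The same split was seen in most of the deposited clusters. There were 17 clusters with at least 50 cells in each library, 11 of them smooth muscle. Ier2 was higher in the double knockout in 17 of 17, with ratios of 2.30 to 6.50 and a median of 3.82. Junb was higher in 16 of 17 with a median ratio of 2.87, and Ier3 in 16 of 17 with a median of 2.94. The exception for both was modEC cluster 10, where the ratio was 0.90 for Junb (0.65 to 1.23) and 0.93 for Ier3 (0.66 to 1.29). The direction of Ier3 there turned with the processing, as its log2 ratio ran between -0.94 and 0.52 over 7 alternatives.

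On the other side, Fosb and Atf3 were lower in the double knockout in 17 of 17 clusters, with median ratios of 0.64 and 0.52. Jun and Egr1 were lower in 16 of 17, with medians of 0.65 and 0.58, and the exception for both was immune/inflam cluster 13. Fos was lower in 14 of 17, but its median ratio of 0.88 was near level, and Nr4a1 was lower in 13 of 17 with a median of 0.83. The interval lay wholly below 1 in 16 clusters for Fosb and Atf3, 15 for Egr1 and 14 for Jun. For Fos it lay below 1 in 11 clusters and above 1 in 3, and for Nr4a1 in 4 and 1. The clusters of a library share its preparation and its free RNA, so they are not replicates of the genotype.

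**Figure D2:**
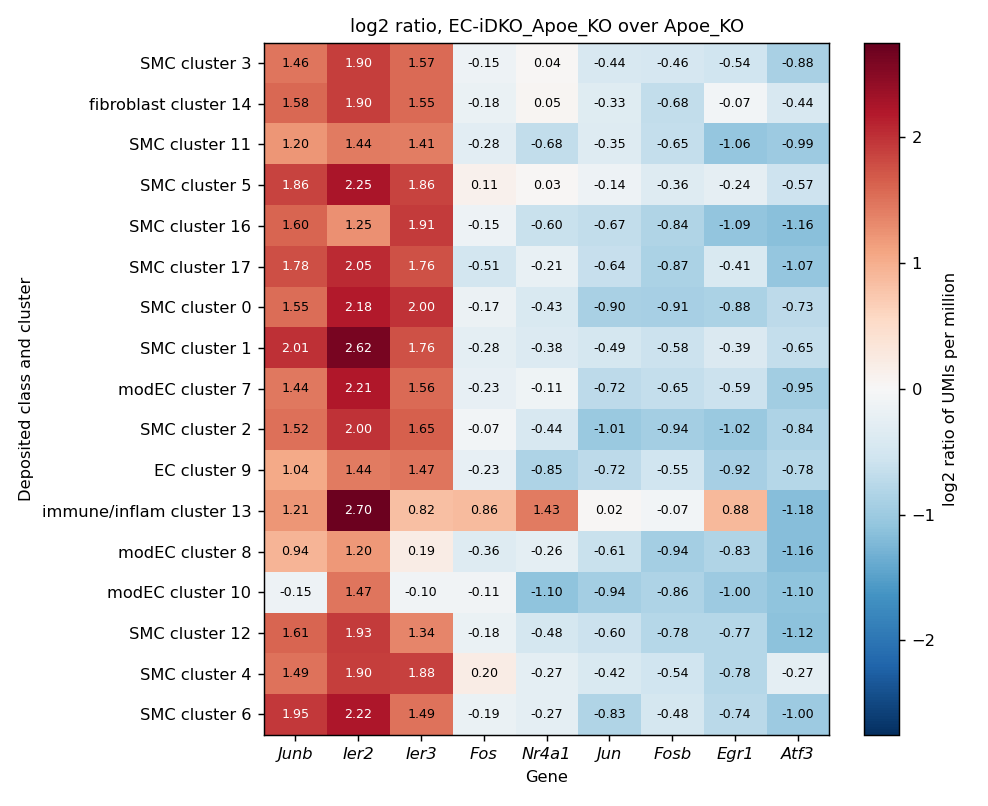
The log2 ratio of UMIs per 1000000 UMIs, double knockout over Apoe_KO, for the 9 genes (columns) in the 17 deposited clusters with at least 50 cells in each library (rows, ordered by the summed level in the double knockout). Junb, Ier2 and Ier3 are positive in nearly every row, Atf3 and Fosb are negative in every row, and immune/inflam cluster 13 departs from the rest in Fos, Egr1 and Nr4a1.

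Outside smooth muscle and the endothelium, fibroblast cluster 14 had Junb, Ier2 and Ier3 higher in the double knockout and 1 of the other 6 lower. Junb was at 1341 CPM in the double knockout and 448 CPM in the Apoe_KO, 2.99-fold higher (2.41 to 3.70), and Egr1 was at 3386 and 3561 CPM, a ratio of 0.95 (0.85 to 1.07). By the rule 3 of 9 genes were higher and 1, Fosb, lower, beside 6.4% and 5.63% of 4781 genes. The fibroblast markers summed to 675 CPM in the double knockout and 1554 CPM in the Apoe_KO in this cluster, and the pericyte markers to 2223 and 4538 CPM, while the smooth muscle markers stood at 24425 and 24457 CPM. It is called by its deposited name, and the part of these cells in the ratios was not tested. In modEC cluster 7, Junb, Ier2 and Ier3 were higher and 4 genes lower, beside 7.05% and 7.33% of 6099 genes.

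In modEC cluster 8, 2 genes (Junb and Ier2) were higher and 4 genes lower, beside 8.04% and 5.31% of 7898 genes. Ier3 was at 702 CPM in the double knockout and 613 CPM in the Apoe_KO there, a ratio of 1.14 (0.95 to 1.37). In modEC cluster 10, 1 gene (Ier2) was higher and 5 were lower, beside 7.7% and 4.8% of 4379 genes. In this cluster 10 double knockout and 158 Apoe_KO cells had at least 1000 UMIs, and 1 and 87 had at least 2000. At the higher minimum, with that 1 double knockout cell, the log2 ratio turned to 0.56 for Egr1 and 0.046 for Nr4a1, Fosb and Atf3 did not meet the rule, and Jun had 0 UMIs in the double knockout. With cells thinned to 1000 UMIs Nr4a1 also turned, to 0.17. In clusters 8 and 10 the 5 cartilage markers summed to 93.2 and 30.1 CPM in the double knockout against 6318 and 23224 CPM in the Apoe_KO. The smooth muscle markers summed to 18722 and 41768 CPM in the double knockout against 13085 and 23720 CPM in the Apoe_KO. In the Apoe_KO, cluster 10 had the highest Junb, Ier2 and Ier3 of the 17 clusters, at 765, 212 and 676 CPM. The part of these markers in the ratios was not tested.

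Immune/inflam cluster 13 departed from the other clusters. Fos stood at 2376 CPM in the double knockout and 1309 CPM in the Apoe_KO, 1.82-fold higher (1.49 to 2.20). Egr1 stood at 1618 CPM in the double knockout and 879 CPM in the Apoe_KO, 1.84-fold higher (1.44 to 2.32). Atf3 kept its direction, at 615 CPM in the double knockout and 1391 CPM in the Apoe_KO. By the rule 6 of 9 genes were higher and 1 lower, beside 8.33% and 6.1% of 5537 genes, and all genes tested there had a median log2 ratio of 0.19.

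The cells of cluster 13 were not alike in the libraries. The 53 double knockout cells had a median of 696 UMIs and the 144 Apoe_KO cells a median of 4565. Smooth muscle markers summed to 36790 CPM in the double knockout and 13146 CPM in the Apoe_KO, and 6 of 6 were higher in the double knockout. The 6 macrophage markers, among them C1qa and Lyz2, summed to 3544 CPM in the double knockout and 11457 CPM in the Apoe_KO. Of those, 6 of 6 were lower in the double knockout and 1 was at 0. Fos and Egr1 were both nearer their smooth muscle levels in the double knockout, the library with more smooth muscle RNA in this cluster. The part of that RNA in the ratios was not tested. Among cells of at least 2000 UMIs, 3 in the double knockout and 126 in the Apoe_KO, Fos and Egr1 fell short of the rule, at log2 ratios of 0.60 and 0.46, and Nr4a1, with 1 UMI in the double knockout, turned to -0.15.

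Of the 17 compared clusters, the highest and the lowest by the summed level of the 9 genes were the same in both libraries. SMC cluster 3 was highest, at 15203 CPM in the double knockout and 16615 CPM in the Apoe_KO, and its interval did not overlap that of the next cluster in either library. SMC cluster 6 was lowest, at 4581 CPM in the double knockout and 5465 CPM in the Apoe_KO, and in the Apoe_KO it overlapped immune/inflam cluster 13. The range between those extremes was 3.32-fold in the double knockout and 3.04-fold in the Apoe_KO, wider than any ratio of the sum between the libraries. Some clusters too small to compare lay below SMC cluster 6. SMC cluster 15 did so in the double knockout only, at 4136 CPM, and EC cluster 20 in the Apoe_KO only, at 4739 CPM. The interval of SMC cluster 15 (3731 to 4573) overlapped that of SMC cluster 6 (4415 to 4753) in the double knockout, so their order is not resolved.

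Between the top and the bottom many neighbours overlapped, so that order is not resolved. In the double knockout each of the clusters at ranks 4 to 14 overlapped the next one down, and in the Apoe_KO each of those at ranks 3 to 9. Over the 17 clusters, which share a library each, the Pearson correlation of the log2 summed level between libraries was 0.80 and the Spearman correlation 0.69, but with clusters of any size the Pearson correlation was 0.014. By gene it ran between 0.38 for Nr4a1 and 0.87 for Fosb and Atf3. SMC cluster 3 was the top cluster of Fos, Fosb, Jun and Egr1 in both libraries, with Fos at 4658 CPM in the double knockout and 5154 CPM in the Apoe_KO. For Fosb and Jun the interval of SMC cluster 3 overlapped that of another cluster in both libraries, and for Egr1 in the double knockout. Atf3 was highest in SMC cluster 11 in both, at 1075 CPM in the double knockout and 2137 CPM in the Apoe_KO. Its interval there overlapped that of SMC cluster 3 (1031 CPM) in the double knockout and SMC cluster 16 (1952 CPM) in the Apoe_KO, so this peak is not resolved.

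**Figure D3:**
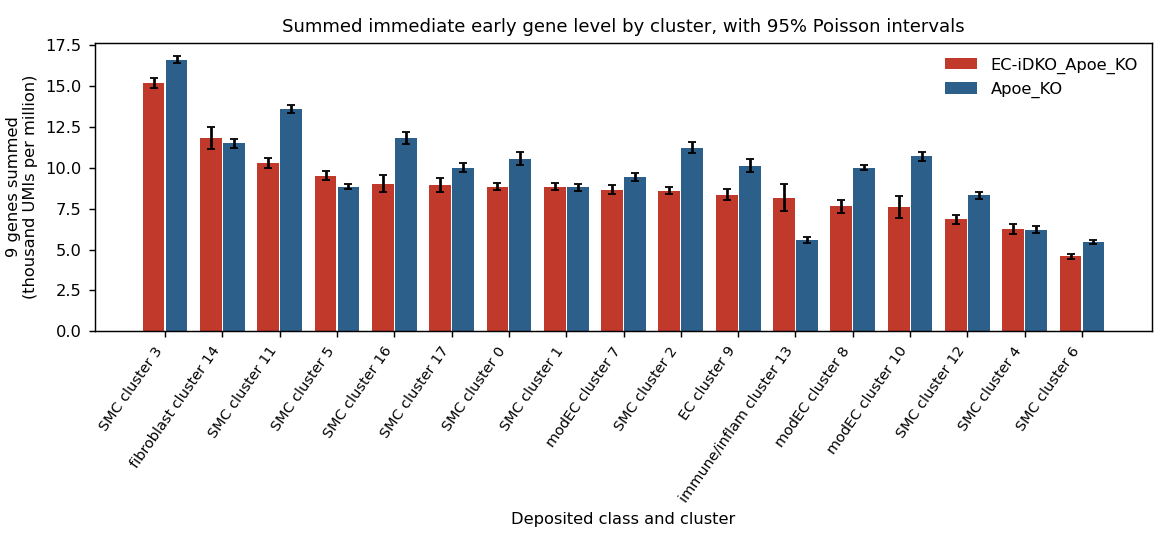
Summed level of the 9 genes (axis in multiples of 1000 UMIs per 1000000 UMIs), by deposited cluster and in falling order of the double knockout, with the double knockout bar left of the Apoe_KO bar and 95% Poisson intervals. Of the clusters shown, SMC cluster 3 is highest in both libraries and SMC cluster 6 lowest, and immune/inflam cluster 13 stands higher in the double knockout.

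The pattern over clusters was compared between members. Over the 17 clusters, Junb and Ier3 had a Pearson correlation of 0.68 in the double knockout and 0.88 in the Apoe_KO, and Junb and Ier2 one of 0.86 and 0.85. Fosb and Jun had 0.85 and 0.89. These are descriptions over clusters that share depth and free RNA.

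Among the 2741 other genes of at least 50 CPM in each library, the 5 whose pattern over the 17 clusters was most like the summed level were Sertad1, Brd2, Slc38a2, Gadd45g and Bag3. The lower of their 2 correlations was 0.70 for Sertad1, a cell cycle cofactor, 0.67 for Brd2, a bromodomain protein, and 0.66 for Slc38a2, an amino acid transporter. Gadd45g, a growth arrest gene, and Bag3, a co-chaperone, both had 0.65.

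Some clusters were too small in one library to compare. EC cluster 19, with 67 double knockout cells, held the highest Junb and Ier3 of the clusters with at least 20 cells in a library, at 3112 CPM (2781 to 3472) and 3122 CPM (2790 to 3482), while its Fos was 1047 CPM, less than the 2388 CPM of double knockout EC cluster 9. It had 9 cells in the Apoe_KO. EC cluster 20, with 26 double knockout and 25 Apoe_KO cells, had Ier3 at 920 CPM (607 to 1339) in the double knockout and 106 CPM (38.9 to 231) in the Apoe_KO.

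The split was also seen in how many cells carried a tag. After each cell of at least 1000 UMIs was thinned to 1000, which left 1500 double knockout and 1421 Apoe_KO smooth muscle cells, Junb was detected in 48.4% of cells in the double knockout (45.8 to 51) and 22.6% in the Apoe_KO (20.4 to 24.9). Ier2 was detected in 36.1% of cells in the double knockout and 11.3% in the Apoe_KO, and Ier3 in 49.1% and 18.9%. Fos was detected in 82.7% and 82.3%, Egr1 in 72.4% and 82.5% and Atf3 in 43.5% and 57.1%.

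The thinning left out 2848 double knockout and 95 Apoe_KO cells. Without thinning, the shares of the higher members lay closer, and those of Ier3 and Junb lay in the opposite order to their CPM, so no order is read from them. Ier2 was detected in 37.5% of cells in the double knockout and 37.2% in the Apoe_KO, Ier3 in 50.0% and 52.7%, and Junb in 51.3% and 58.9%. In the same unthinned cells Fos was detected in 84.3% and 95.6%, Egr1 in 70.7% and 95.3% and Atf3 in 43.7% and 83.9%. After thinning, at least 1 of the 9 genes was seen in 96.6% of these double knockout and 97.4% of these Apoe_KO cells, and the median cell held 9 of their UMIs in each library. No population without these genes was at hand to set the background of free RNA. The lowest share met for Ier2 was 9.35%, in Apoe_KO cells of immune/inflam cluster 13, where the median depth before thinning was 4565 UMIs, against 4892 UMIs in Apoe_KO smooth muscle.

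In smooth muscle cells of at least 4000 UMIs thinned to 4000 (170 in the double knockout and 849 in the Apoe_KO), the 36 pairs of members had a median Spearman correlation over cells of 0.26 in each library. Fos with Egr1 had 0.44 in the double knockout and 0.61 in the Apoe_KO, the highest pair of the Apoe_KO. Junb with Egr1 had 0.53 in the double knockout, its highest pair, and 0.36 in the Apoe_KO. The summed level of the 9 genes went with the summed heat shock genes in the Apoe_KO, at 0.54, and hardly at all in the double knockout, at 0.01. With the mitochondrial ratio the values were -0.25 and -0.33.

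Because depth differed so much, smooth muscle cells were also compared within bins of UMIs per cell, a choice made after the data were seen. Ier2 was higher in the double knockout in all 4 bins, with ratios of 3.02 to 4.28, as was Ier3 with 3.02 to 4.09. Junb was higher by 1.74- to 3.16-fold, with the smaller ratios in cells under 2000 UMIs. Its level hardly differed between bins in the double knockout, at 807 to 855 CPM, while in the Apoe_KO it was 445 CPM in the shallowest and 263 CPM in the deepest bin. Fosb, Jun, Egr1 and Atf3 had ratios below 1 in all 4 bins.

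The ratios of Fosb, Jun, Egr1 and Atf3 lay nearer to 1 in the deepest than in the shallowest cells. Fosb had 0.45 in the shallowest bin and 0.63 in the deepest, and Atf3 0.50 and 0.66. In cells under 1000 UMIs Egr1 had a ratio of 0.39 (0.35 to 0.44), with 1681 CPM in the double knockout and 4312 CPM in the Apoe_KO, and in cells of 4000 UMIs and over it had 0.74 (0.70 to 0.78). Jun had 0.44 in the shallowest bin and 0.83 in the deepest, where neither Jun nor Egr1 met the rule. The shallowest bin held 2848 double knockout and 95 Apoe_KO cells and the deepest 170 and 849. In 3 bins of the mitochondrial ratio, the ratios of Egr1 lay between 0.61 and 0.65 and those of Junb between 2.77 and 3.26.

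**Figure D4:**
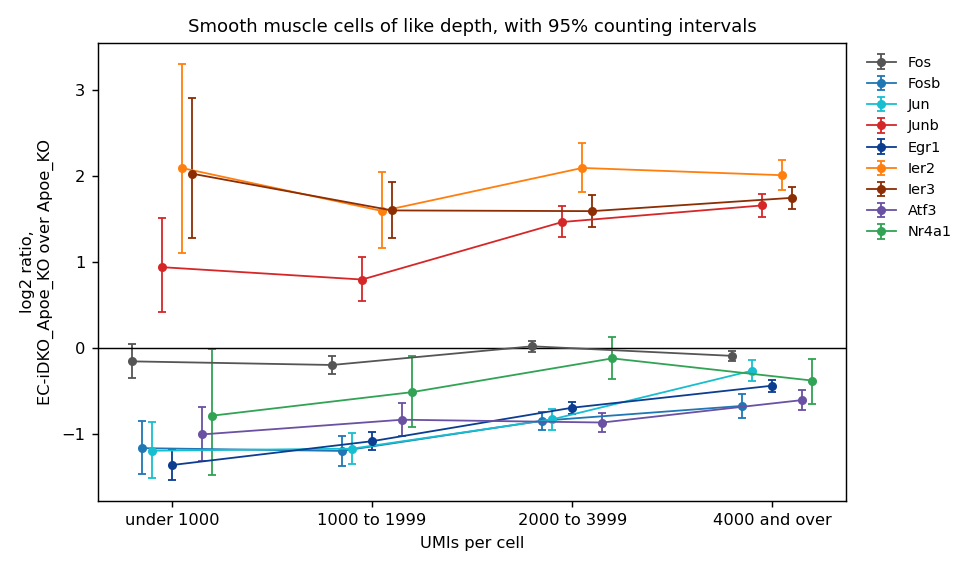
The log2 ratio of each gene, double knockout over Apoe_KO, in smooth muscle cells of 4 bins of UMIs per cell, with 95% counting intervals. Junb, Ier2 and Ier3 stay above 0 in every bin. Fosb, Jun, Egr1 and Atf3 stay below 0 and lie nearer 0 in the deepest than in the shallowest cells.

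Of 31 other immediate early or primary response genes, 30 were in the count table, and all 30 had enough UMIs in smooth muscle. By the rule 10 of the 30 were higher and 4 lower, beside 9.87% and 7.67% of all genes, and their median log2 ratio was 0.09. Gadd45b, a stress and NF-κB target, stood at 1850 CPM in the double knockout and 931 CPM in the Apoe_KO, 1.99-fold higher (1.93 to 2.05). Ccn1, a matricellular target of serum response factor, stood at 558 CPM in the double knockout and 890 CPM in the Apoe_KO, a ratio of 0.63 (0.60 to 0.65), whereas Ccn2, a related gene, was at 1892 and 1913 CPM, a ratio of 0.99. Klf6, a zinc finger factor, and Btg2, an antiproliferative gene, had ratios of 0.88 and 1.09.

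Outside the naming rule, and chosen after their values were seen, Ier5l was 4.08-fold, Klf10 3.61-fold and Irf1 3.50-fold higher in the double knockout. Nfil3 and Arc were lower there, with ratios of 0.49 and 0.45.

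Of 14 feedback regulators, which are induced with the early genes and shut the response off, 5 were higher and 3 lower in smooth muscle, beside 9.87% and 7.67% of all genes, and the median log2 ratio was 0.48. Nfkbia, the NF-κB inhibitor, stood at 1143 CPM in the double knockout and 376 CPM in the Apoe_KO, 3.04-fold higher (2.92 to 3.18). Socs3, an inhibitor of cytokine signalling, was 1.85-fold higher (1.65 to 2.08). Dusp1, a phosphatase of MAP kinases, went the other way, at 634 CPM in the double knockout and 1012 CPM in the Apoe_KO, a ratio of 0.63 (0.60 to 0.65). Zfp36, an mRNA decay factor, had a ratio of 1.49 (1.38 to 1.61) and its relative Zfp36l1 one of 0.79.

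Of 12 genes of upstream factors, 1 (Crem, a cyclic AMP response modulator) was higher and 1 lower, near the 9.87% and 7.67% of all genes. Their median log2 ratio was 0.12. Creb1, a cyclic AMP response factor, stood at 62.0 CPM in the double knockout and 68.7 CPM in the Apoe_KO. Mapk3, the ERK1 kinase, had a ratio of 1.08 (0.91 to 1.29). Atf1 and Mapk14, the p38 kinase, had ratios of 1.20 and 1.09.

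Heat shock genes, which tissue digestion is also known to induce, were lower in 8 of 11 cases in smooth muscle and higher in 0, beside 7.67% and 9.87% of all genes. Their median log2 ratio was -0.76, and their summed level was 9961 CPM in the double knockout and 17771 CPM in the Apoe_KO. Hspa1a, an inducible chaperone, stood at 455 CPM in the double knockout and 1709 CPM in the Apoe_KO, a ratio of 0.27 (0.26 to 0.28). Hsp90aa1 and Hspa8 had ratios of 0.40 and 0.64. Hsp90ab1 had 0.80 and Hspb1 1.31. The part of digestion, of handling and of genotype in the early gene levels cannot be told apart, as each library was prepared once.

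**Figure D5:**
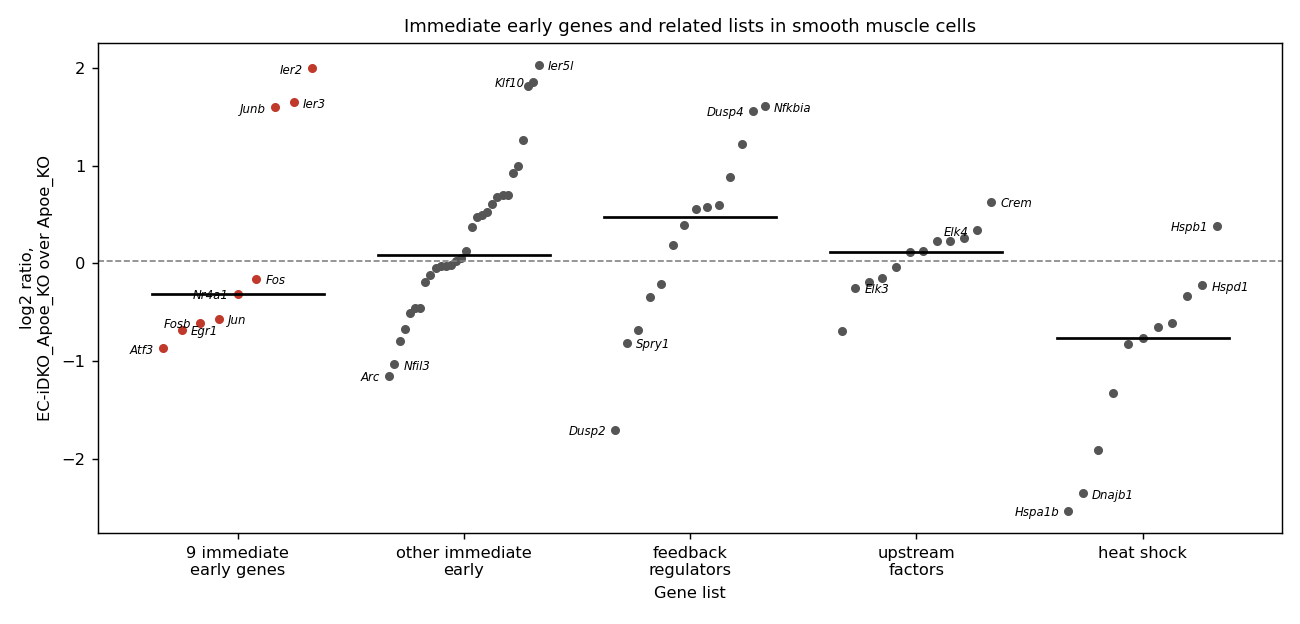
The log2 ratio, double knockout over Apoe_KO, of each gene with enough UMIs in smooth muscle, for the 9 immediate early genes (red) and 4 related lists (grey), with the list median as a black bar and the median of all genes as a dashed line. The early gene lists spread to both sides of 0 and the heat shock genes lie mostly below it.

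Marker genes of other cell types were also counted in smooth muscle. The 6 macrophage markers summed to 10.8 CPM in the double knockout and 58.3 CPM in the Apoe_KO, with Adgre1 at 0 in the double knockout. The 3 erythroid markers summed to 59.8 CPM in the double knockout and 3.74 CPM in the Apoe_KO. The 5 fibroblast markers summed to 470 CPM in the double knockout and 857 CPM in the Apoe_KO, and 5 adipocyte markers to 264 and 171 CPM. The 5 cartilage markers summed to 55.1 CPM in the double knockout and 245 CPM in the Apoe_KO, and the 5 pericyte markers to 1678 and 2495 CPM. The 7 endothelial markers summed to 66.9 CPM in the double knockout and 52.1 CPM in the Apoe_KO, and the 5 T cell markers to 1.09 and 4.32 CPM. Their part in the early gene ratios was not tested.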

How the data were processed

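Cells of digested aortas were measured in 2 droplet libraries with 3′ tags and UMIs (version 2 of the chemistry, per the labels' protocols), 1 per genotype. The authors deposited a table of raw UMI counts by cell and gene. Their metadata table gives each cell's class, cluster number and mitochondrial ratio, deposited as a fraction. Cell Ranger, Seurat and the mm10 build are named in the submitters' processing notes without versions. The deposited Apoe_KO entries held each of 2428 barcodes in 2 identical copies, of which 1 was kept. Doublets were not called here.

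UMIs were summed per deposited class and cluster with Python 3.11.15, numpy, scipy 1.17.1 and pandas. Intervals are at 95%: exact Poisson for a sum, conditional binomial for a ratio, Clopper-Pearson for a share of cells. Populations needed 50 cells in each library. A ratio with 0 UMIs in 1 library used a floor of 3 UMIs in medians over lists. Named genes were the 9 members, the 5 genes with the most UMIs of each of 4 lists, and the 5 genes most alike over clusters on log2(CPM + 10). Of these, 1 gene is not reported here. The members and lists were chosen with earlier results of these data known. On simulated data with known folds the rule was checked. Alternatives were the depth, the mitochondrial limit, thinning, the denominator, the scaling, the weight of clusters, the duplicate entries and the thresholds.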

Additional observations from a re-analysis of the deposited data

Results flagged for a closer look

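In immune/inflam cluster 13 the log2 ratio, double knockout over Apoe_KO, was 0.86 for Fos, 0.88 for Egr1 and 1.43 for Nr4a1, whereas all 3 genes had a negative log2 ratio in smooth muscle. They are listed because the libraries differed in opposite directions in these populations, with 1 library per genotype on each side, so the difference itself was not tested. Nr4a1 rested on 16 UMIs in the double knockout and 105 UMIs in the Apoe_KO. Among cells of at least 2000 UMIs, 3 in the double knockout and 126 in the Apoe_KO, it turned to -0.15, and Fos (0.60) and Egr1 (0.46) did not meet the rule of size. Smooth muscle markers in this cluster summed to 36790 CPM in the double knockout and 13146 CPM in the Apoe_KO, and their part in the ratios was not tested.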

How the results depend on the processing

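In smooth muscle, Junb, Ier2, Ier3 and Atf3 kept their direction and met the rule of size, at its 1.5-fold limit, under 12 alternatives to the cells, scaling and weights, with log2 ratios of 0.80 to 1.66, 1.60 to 2.10, 1.59 to 2.03 and -1.0 to -0.60. At a 2-fold limit Atf3 did not meet it. The log2 ratio of the sum of the 9 genes, -0.18, was -0.15 in cells of at least 1000 UMIs and under 10% mitochondrial, and -0.090 at 2000 UMIs or more. It was -0.20 with cells thinned to 1000 UMIs, -0.20 without mitochondrial, ribosomal protein and Lars2 UMIs, -0.21 with median-of-ratios scaling and -0.20 with clusters weighted equally. In bins of depth, added after the data were seen, it was -0.52 under 1000 UMIs, -0.47 from 1000 to under 2000, -0.20 from 2000 to under 4000 and -0.051 at 4000 and over. Genes lower by the rule in smooth muscle numbered 1 at 2000 UMIs or more and 0 at a 2-fold limit, against 3. In EC cluster 9 they numbered 2 and 0, against 4, and the sum, -0.28, was -0.18 at 2000 UMIs or more and -0.41 thinned. In the smooth muscle depth bins, Fosb, Jun, Egr1 and Atf3 were lower by the rule from 2000 to under 4000 UMIs. At 4000 and over, Fosb and Atf3 were lower by it. At 2000 UMIs or more the direction reversed for Jun in EC cluster 9 (0.18), Nr4a1 in immune/inflam cluster 13 (-0.15), and Egr1 and Nr4a1 in modEC cluster 10 (0.56 and 0.046), with 8, 3 and 1 double knockout cells in these clusters. Nr4a1 in modEC cluster 10 also reversed thinned (0.17), as did Ier3 (0.52), and Jun there had 0 UMIs at 2000 UMIs or more, so no value was had. In immune/inflam cluster 13 the median log2 ratio over the genes used for median-of-ratios scaling was -0.24. That scaling subtracts this median, so every log2 ratio rose there. The correlation of the summed level between libraries, 0.80 over 17 clusters, was 0.014 with clusters of any size. The causes were not tested. With 1 library per genotype, no replicate could be left out. No paired analysis was possible because each genotype had 1 library. In cells under 1000 UMIs, 95 Apoe_KO cells limit the precision.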
